A study of Ovis aries with 16 samples.

Results

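In the amnion of fetal sheep, 200 genes of 25197 were picked out because they were jointly high in 3 libraries: UD 1 and UD 4, from fetuses whose urine was drained, and IA 2, from a fetus whose amniotic sac was infused. The measure behind the choice was log2(CPM+1), where CPM is the count relative to the library total (counts per 1e6 counts). For each gene ID, the lowest of the values in UD 1, UD 4 and IA 2 was set against the mean of the 4 control libraries, and the 200 IDs with the largest difference were taken. IDs with a mean of 1000 CPM or more in the controls were not eligible, nor was a block of 37 IDs at the start of the numbering, which left 25059 IDs to choose from. The deposited table gives Ensembl sheep gene IDs without names, and 0 of them matched the reference gene table used here. The members are therefore described by their levels, and 4 of them by ID. Roles of single genes, cell type markers and sequences could not be given.

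The libraries came from 16 time-dated pregnant ewes with singleton fetuses, instrumented at gestational day 121 ± 0.5 (SE) of a pregnancy that lasts 145 to 150 days, 4 animals to a group and 1 library from each. Fetuses and ewes of every group carried vascular catheters, and catheters lay in the amniotic fluid and the fetal bladder; the protocols lasted 2 days. Controls (C) had no fluid altered, UD had fetal urine drained and not replaced, UDR had it drained and replaced by the same volume of lactated Ringer's solution, and IA received 2 liters of the same solution per day by infusion into the amniotic sac. Strain and fetal sex are not in the labels used here, and the labelled tissue could not be checked against markers without gene names.

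The amnion is the innermost fetal membrane, a layer of epithelium on a basement membrane over thin, avascular connective tissue. Amniotic fluid is fed mainly by fetal urine and lung liquid. It leaves by fetal swallowing and by intramembranous transport, the passage of water and solutes across the amnion into fetal blood, in part within vesicles. Removing urine or adding fluid alters the volume and composition of what bathes the epithelium. In a sample of whole tissue, a set of genes can be jointly high when cells express them more strongly or when cells that express them are more numerous, and RNA counts of bulk tissue cannot tell these apart.

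Of the 3 libraries of the choice, IA 2 and UD 1 stood apart over many genes as well as over the members, and UD 4 did not; UDR 3, outside the choice, also stood apart. The median Spearman correlation of a library with the others, over the 14148 IDs with enough counts to be tested, was 0.77 for IA 2, 0.844 for UDR 3, 0.850 for UD 1 and 0.901 to 0.957 for the other 13, UD 4 among them at 0.916. Without the members it was 0.786 for IA 2, 0.871 for UD 1 and 0.931 for UD 4. The 16 libraries held 12245460 to 30767263 counts, with 18553674 in UD 1, 17816283 in UD 4 and 16777223 in IA 2, against 12307412 to 16956583 in C. UD 1 was sequenced in lane 1 with all controls, UD 4 in lane 2 and IA 2 in lane 3, so the 3 libraries shared no lane. Values scaled to the library total placed the median tested gene as low as -0.28 (UD 1) and -0.26 (IA 2) in log2 relative to C, a shift that lowers the values of the members in those libraries too.

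The members took up a large share of the RNA in the 3 libraries. They held 7.09% of the counts of UD 1 (95% exact binomial interval 7.08 to 7.10), 4.28% of UD 4 (4.28 to 4.29) and 5.79% of IA 2 (5.78 to 5.80). In the controls they held 0.882% in C 1, 0.645% in C 2, 0.247% in C 3 and 0.385% in C 4. These intervals leave out every error but that of counting, as reads copied by PCR are not separate molecules. All 3 libraries lay far above every control, and the members had been chosen for high values in them relative to the control mean.

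Among the libraries that the choice did not use, the share was 1.23% in UD 2 and 0.802% in UD 3. It was 0.365% in IA 1, 0.507% in IA 3 and 1.37% in IA 4. It was 0.441% in UDR 1, 0.371% in UDR 2, 2.16% in UDR 3 and 0.412% in UDR 4. UD 2, IA 4 and UDR 3 lay above the highest control, and UDR 1, UDR 2, UDR 4, IA 1, IA 3 and UD 3 lay within the range of the controls. The value of UDR 3 rested on 1 gene, the third member in the order of the choice, which made up 58.7% of the member counts there; without it the share was 0.892%.

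**Figure D1:**
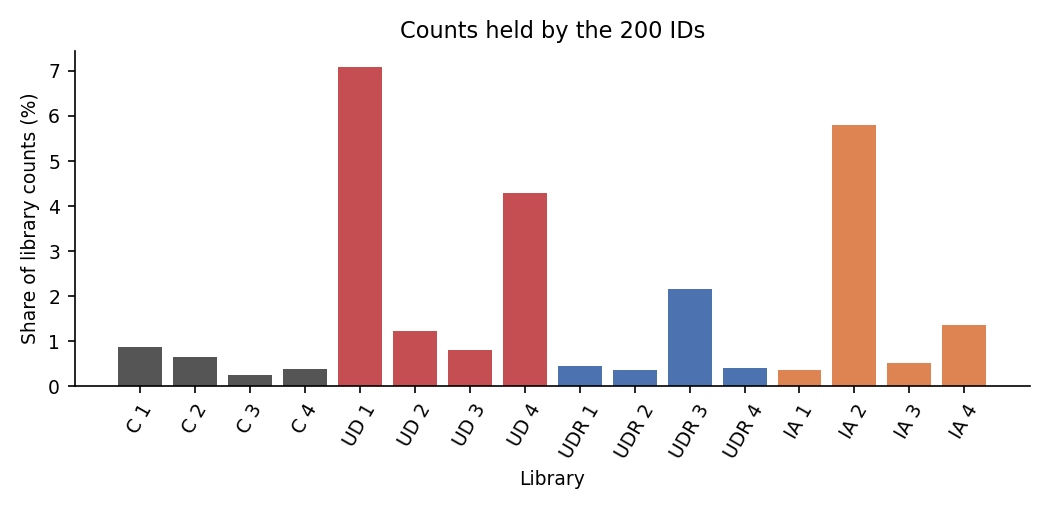
Share of each library's counts held by the 200 members, in percent; bars start at 0 and are coloured by group (C grey, UD red, UDR blue, IA orange). UD 1, IA 2 and UD 4 reach 7.09%, 5.79% and 4.28%, and UDR 3 follows at 2.16%.

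Taken gene by gene, the lowest of the 3 libraries lay 2.40 to 5.44 above the mean of C on the log2(CPM+1) scale, with a median of 2.85, or 7.21-fold. The difference exceeded 3 for 67 members, 4 for 11 and 5 for 2. The limit of the list cut through a continuum: the last 3 members stood at 2.42, 2.41 and 2.40, and the next 3 IDs outside it at 2.40, 2.40 and 2.39. These values chose the members and are given as a description.

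UD 4 set the lowest value for 152 members, IA 2 for 29 and UD 1 for 19, while the highest value was in IA 2 for 108, in UD 1 for 88 and in UD 4 for 4. The median difference from C was 3.62 in UD 1, 2.88 in UD 4 and 3.78 in IA 2. Within a gene, the ratio of the highest to the lowest CPM of the 3 libraries had a median of 2.22, was under 2 for 86 members, and was over 4 for 16. Across the 200 members the differences of UD 1 and UD 4 had a Pearson correlation of 0.66 (Spearman 0.58), those of UD 1 and IA 2 of 0.51 (0.46) and those of UD 4 and IA 2 of 0.47 (0.28). All of these differences share the same control mean, which by itself gives some correlation. They also chose the members, which kept only IDs high in all 3 libraries, so the correlations are a description only.

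**Figure D2:**
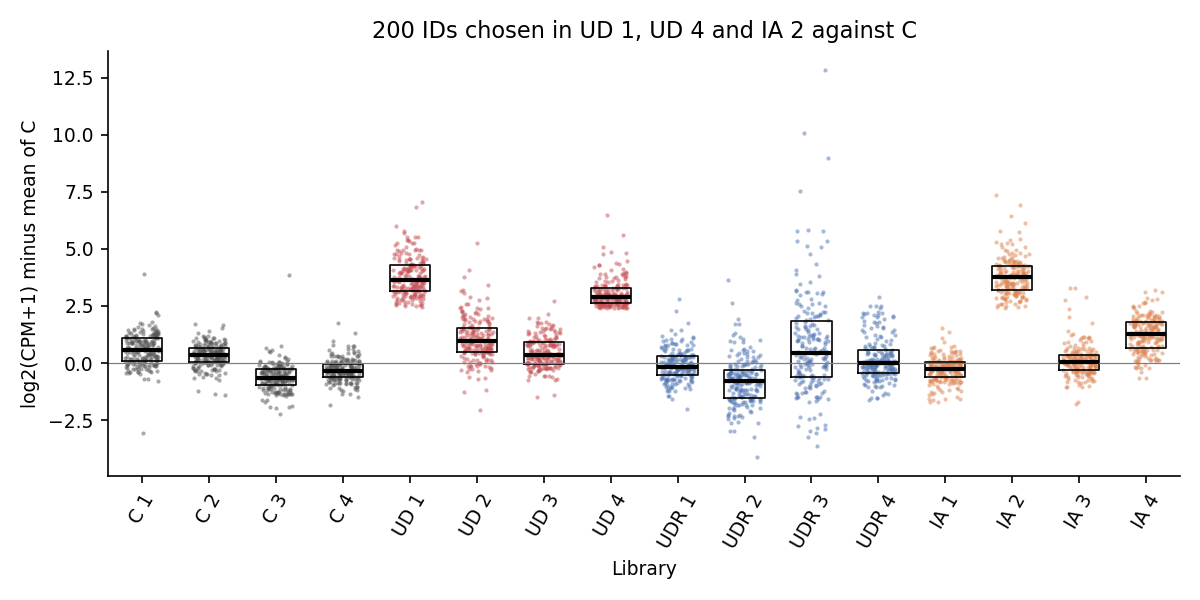
Each point is 1 of the 200 members in 1 library, as log2(CPM+1) minus the mean of the 4 controls; boxes span the quartiles, thick lines are medians, and colours are the groups (C grey, UD red, UDR blue, IA orange). Medians are 3.62 in UD 1, 2.88 in UD 4 and 3.78 in IA 2, while IA 4 at 1.29 and UD 2 at 0.94 lie between these and the controls, and UDR 3 has the widest spread.

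The members were genes of low to middling abundance in control amnion. Their mean CPM in C ran from 0.0295 to 584.8, with a median of 5.71 over the 199 members that were tested, against 20.4 over all 14148 tested IDs. It was under 1 CPM for 34 members, over 10 for 78 and over 100 for 11. No member was absent from the controls as a group: the smallest sum over the 4 libraries was 2 counts, and 184 members had counts in all 16 libraries. In UD 1, UD 4 and IA 2 a member had at least 115, 81 and 113 counts, with medians of 1484.5, 865.5 and 1467, so counting error was small there. In the controls the median member had 35.5 (C 3) to 121 (C 1) counts. The member left out of the test by its low counts elsewhere, at place 94, had 326 counts in UD 1, 166 in UD 4 and 113 in IA 2, and 0 to 6 in each of the others.

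Member counts were concentrated in a few genes. The 10 members most abundant in a library held 55.3% of the member counts in UD 1, 56.1% in UD 4 and 42.6% in IA 2. They held 54.6% to 61.9% in the controls. The highest concentrations were in UDR 2 and UDR 3, at 77.4% and 79.1%. In UD 1, 14 members exceeded 1000 CPM, in IA 2 12 and in UD 4 9, against 1 in C 1 and 0 in the other controls.

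The controls themselves differed in the members. The choice used only their mean, which does not set their order, but it favoured IDs with a very low value in a control. Relative to the control mean the median member stood at 0.57 in C 1, 0.35 in C 2, -0.64 in C 3 and -0.35 in C 4. Both C 1 and C 2 exceeded both C 3 and C 4 for 129 of the 199 tested members (64.8%), where this held for 26.7% of all tested IDs. C 3 was the lowest control for 116 members (58.3%), against 21.1% of all tested IDs. The median SD of a member within C was 0.78 on the log2(CPM+1) scale, against 0.36 over all tested IDs. The 2 sets were not matched in abundance, with a median control level of 5.71 CPM for the members and 20.4 for all tested IDs. In these values, which took part in the choice, the member set stood at different levels in untreated animals. The difference was less than that between controls and the 3 libraries.

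IA 4 was intermediate. The median member lay 1.29 above C in IA 4, that is 2.45-fold, and 129 of 200 members were over 2-fold above the control mean, where 5.49% of all tested IDs were. No member was over 2-fold below it (background 1.96%). IA 1 and IA 3 stood at -0.25 and 0.06, with 3 and 17 members over 2-fold higher (background 1.39% and 1.75% of tested IDs). Since low control values helped to choose the members, IA 4 was also set against IA 1 and IA 3 alone, none of which entered the choice. The median member was 1.40 higher in IA 4 (quartiles 0.81 and 1.97), against 0.08 for all tested IDs (quartiles -0.17 and 0.40). Over 2-fold higher were 134 of 199 members (67.3%), where 8.01% of tested IDs were, and 1 was over 2-fold lower, where 1.26% were. All 3 of these libraries were sequenced in lane 3. With 1 animal on one side, this difference has no replicate check.

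UDR 3 was high in a part of the members. Its median member lay 0.46 above C, but the quartiles were -0.61 and 1.83, and the differences ran from -3.62 to 12.83. Over 2-fold above the control mean were 82 members (background 11.2% of tested IDs) and over 2-fold below it 33 (16.6% of the tested members), near the 15.1% of all tested IDs. Against UDR 1, UDR 2 and UDR 4, which did not enter the choice either, 95 of 199 members (47.7%) were over 2-fold higher in UDR 3, where 14.6% of tested IDs were, and 21 (10.6%) were over 2-fold lower, where 11.9% were. The 45 members over 4-fold above C in UDR 3 had a median control level of 1.99 CPM.

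UDR 2 was the library in which the members were lowest by the median difference from C, though not by share of counts. Its median member lay at -0.78 relative to C, 83 members were over 2-fold below the control mean and 10 over 2-fold above it (background 12.5% and 5.20% of tested IDs). Of the 4 UDR libraries it was the lowest for 125 of 199 members (62.8%), against 20.8% of all tested IDs. UDR 1 and UDR 4 were near the controls, at -0.17 and 0.01. The sign of these small values is not secure: with TMM scaling, which sets the bulk of genes equal between libraries, they were 0.01 and -0.02. Within UDR, of which no library entered the choice, the median SD of a member was 1.07 on the log2(CPM+1) scale, against 0.50 over all tested IDs.

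**Figure D3:**
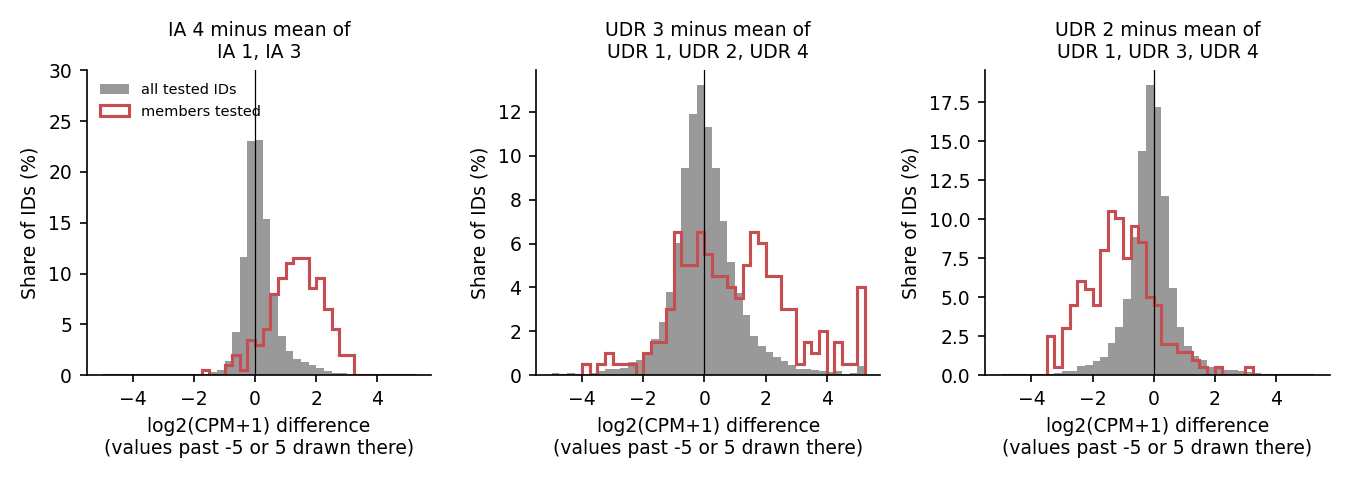
Histograms, in percent of IDs, of the log2(CPM+1) difference of 1 library from others of its group, for the 199 members tested (red line) and all 14148 tested IDs (grey). The members are displaced to the right in IA 4 (median 1.40) and to the left in UDR 2 (median -1.19), and spread to both sides with a longer right arm in UDR 3 (median 0.94).

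The members high in UDR 3 and those high in IA 4 overlapped in part. Over 2-fold above C in both were 41 members, in UDR 3 but not IA 4 41, in IA 4 but not UDR 3 88 and in neither 30. Of all tested IDs, 1.39% were so in both, 9.79% in UDR 3 but not IA 4 and 4.10% in IA 4 but not UDR 3. The 41 in both were 50% of the members over 2-fold higher in UDR 3 and 31.8% of those over 2-fold higher in IA 4. Among all tested members the shares were larger, with 64.8% over 2-fold higher in IA 4 and 41.2% in UDR 3. Across the 200 members, the differences in UDR 3 and IA 4 had a Pearson correlation of -0.28 (Spearman -0.29), although they share the same control mean.

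UDR 2 and UDR 3 were each sequenced in lanes 2 and 3, which gives a measure of the run. In UDR 3 the members held 2.16% of the counts in both lanes, and in UDR 2 0.371% in both. The median absolute difference of a member between lanes was 0.08 in UDR 3 and 0.11 in UDR 2 on the log2(CPM+1) scale. UD 4 shared lane 2 with UD 3 and lay 2.55 above it for the median member (0.04 for all tested IDs), and UD 1, in lane 1 with the controls, lay 3.62 above them (-0.28 for all tested IDs). IA 2, in lane 3 with the rest of its group, lay 3.35 above IA 1, IA 3 and IA 4 (-0.12 for all tested IDs). The high values of UD 1, UD 4 and IA 2 had chosen the members, so these differences are given as a description only.

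UD 2 and UD 3, the drained animals outside the choice, differed less from the controls. The median member lay 0.94 above C in UD 2 and 0.34 in UD 3, and 95 and 42 members were over 2-fold higher (background 7.32% and 1.82% of tested IDs). UD 2 exceeded UD 3 for 140 of 199 members (70.4%), where 58.2% of all tested IDs did. In every UD library, 25 members were over 2-fold above the control mean (0.318% of tested IDs), which the choice required of UD 1 and UD 4 for all members. In all, 185 members were over 2-fold above it in at least 1 of the 9 libraries outside the choice (22.9% of tested IDs), and 23 in at least 4 of them (1.22% of tested IDs). Low control values helped to choose the members, which tends to raise their differences from C in each of these libraries. The shares over all tested IDs do not carry this, so these counts are not independent of the choice. The third member in the order was the only one over 2-fold higher in all 9, and the only one so in every IA library.

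**Figure D4:**
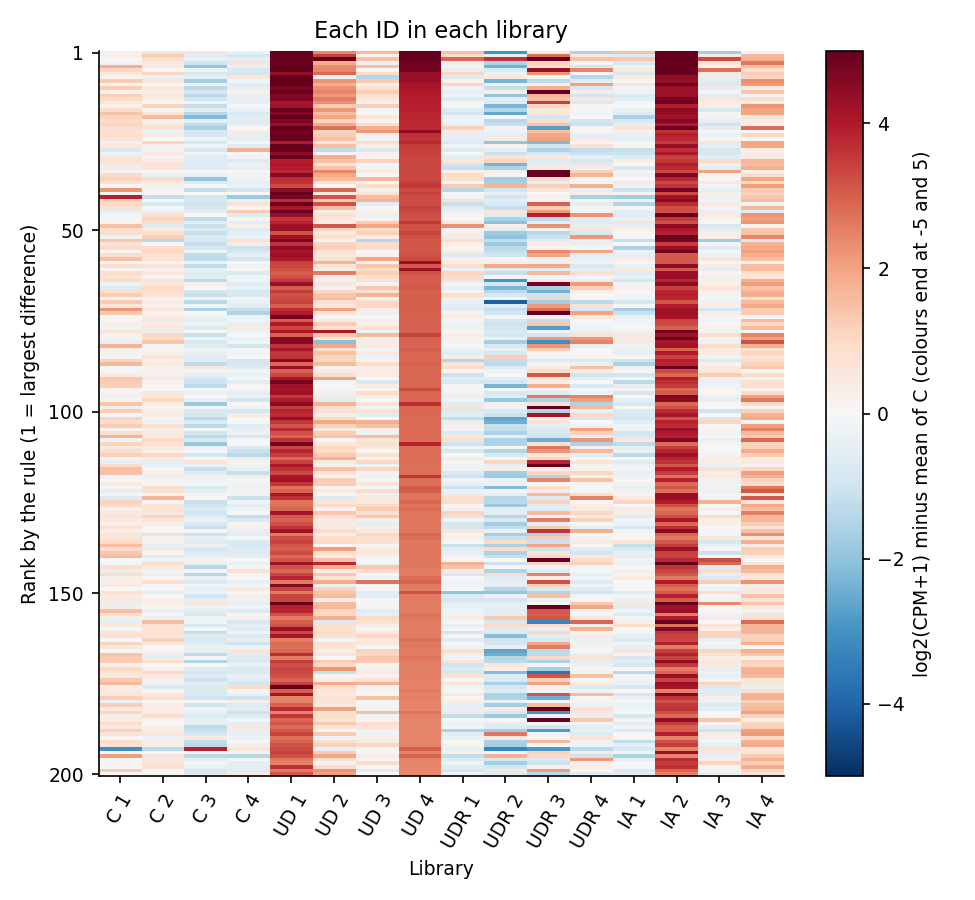
The 200 members (rows, ordered from the largest difference at the top) in the 16 libraries (columns), coloured by log2(CPM+1) minus the control mean, red above and blue below. UD 1, UD 4 and IA 2 are red throughout, as the choice required; IA 4 is pale red over most rows, UDR 2 mostly blue, and UDR 3 varies most from row to row.

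UD was set against C to see what loss of fetal urine does to the amnion, and the members were chosen in part on it, so their values here are a description. The median log2 fold change of the 199 members tested was 3.01 (quartiles 2.52 and 3.78), against -0.01 over all 14148 IDs. edgeR's quasi-likelihood test called 0 IDs (0% of those tested) at an adjusted p under 0.05, members included, and the smallest adjusted p was 0.89. At an unadjusted p under 0.05, 773 IDs were found, 660 of them higher in UD (4.66%), among them 168 members. DESeq2 called 14 IDs, of which 6 were members. For 36 members the lowest UD library exceeded the highest control, where 1.12% of all tested IDs did so; with TMM scaling it was 44 members and 1.90%. The spread between the UD animals, with a median SD of 1.64 per member against 0.78 in C, lay between UD 1 and UD 4, which were high, and UD 2 and UD 3, which were nearer to the controls. Without UD 1 the median log2 fold change was 2.20, and 71 members were found at an unadjusted p under 0.05, among 200 IDs higher in UD. Without UD 2, UD 3 and UD 4 in turn, 181, 185 and 130 members were found, among 891, 1015 and 459 such IDs. Without C 1, C 2, C 3 and C 4 in turn, it was 161, 134, 108 and 110 members, among 905, 439, 336 and 435.

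IA was set against C to see what infusion into the amniotic sac does, and IA 2 and the controls took part in the choice. All IA libraries were in lane 3 and all controls in lane 1, so infusion and lane cannot be told apart here. The median log2 fold change of the members was 2.53, against -0.02 over all IDs, and edgeR called 0 IDs (0%), with a smallest adjusted p of 0.9998. At an unadjusted p under 0.05, 623 IDs were found, 527 of them higher in IA (3.72%), among them 122 members; DESeq2 called 5 IDs, 2 of them members. The result rested on IA 2: without it the median log2 fold change was 0.65 and 2 members had an unadjusted p under 0.05. That number was 101 without C 1, 83 without C 2, 37 without C 3 and 42 without C 4, and 39 with the replicate block. Over all tested IDs, those higher in IA at this p numbered 609, 321, 171, 240 and 218 in these settings, and 71 without IA 2. Without IA 1, IA 3 and IA 4 in turn, 161, 159 and 124 members were found, among 900, 830 and 584 IDs. For 5 members the lowest IA library exceeded the highest control, where 0.474% of all tested IDs did so.

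In UDR the members lay on both sides of the controls. The median log2 fold change was 0.12 (quartiles -0.47 and 1.16), against 0.02 over all IDs, and 113 of 199 members had a positive one. edgeR called 0 IDs (0%), with a smallest adjusted p of 0.685, while 863 IDs had an unadjusted p under 0.05. Of these, 598 were higher in UDR (4.23%), 16 of them members, and 265 lower (1.87%), 2 of them members. DESeq2 called 31 IDs, none of them members. The sign of the median turned without UDR 3, to -0.30, and without C 3, to -0.08. The number of higher members at an unadjusted p under 0.05 was 2 without UDR 3, 8 to 11 without any 1 of the controls, and 1 with the replicate block. Over all tested IDs it was 333, 363 to 891 and 376 in these settings. Without UDR 1, UDR 2 and UDR 4 in turn, 16, 16 and 14 members were higher, among 757, 581 and 905 IDs. No UDR library entered the choice, but all 4 controls did, so this comparison is not independent of it. The UDR libraries were in lanes 2 and 3 and the controls in lane 1, so treatment and lane cannot be told apart here.

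UDR was set against UD to see what replacement of the lost fluid changes. The members had lower values in UDR, with a median log2 fold change of -2.80 (quartiles -3.54 and -1.88) against 0.04 over all IDs, and UD 1 and UD 4 had been used to choose them. edgeR called 0 IDs (0%), with a smallest adjusted p of 0.471, and 1256 IDs had an unadjusted p under 0.05. Of these, 888 were lower in UDR (6.28%), among them 126 members, and 368 higher (2.60%), among them 3 members. DESeq2 called 155 IDs, of which 67 were members. Without UD 1, 83 members had lower values at an unadjusted p under 0.05, among 354 such IDs. With any other single library of UD or UDR left out it was 106 to 147 members, among 579 to 1351 such IDs. Every UDR library lay below every UD library for 56 members, where 1.89% of all tested IDs did so. UD and C are the same libraries in these comparisons, so the values of UD with C and of UDR with UD are not separate observations.

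ENSOARG00000010041 had the largest difference of all members. It was named for that difference of UD 1, UD 4 and IA 2 from C, so its p-values below are a description and not a test. It was at 2992 CPM in UD 1, 1098 in UD 4 and 991.6 in IA 2. In the controls it was at 26.0, 13.98, 34.7 and 17.9 CPM in C 1 to 4. UD 2 and UD 3, at 121.3 and 68.8 CPM, also lay above every control. It was at 61.3, 1.92, 30.9 and 6.94 CPM in UDR 1 to 4. In IA 1, IA 3 and IA 4 it was at 64.4, 6.01 and 19.3 CPM. UDR 1 and IA 1 thus also lay above every control. UDR 2, UDR 4 and IA 3 lay below every control, and UDR 3 and IA 4 within their range. The log2 fold change of UD against C was 5.80 (SE 1.76; adjusted p = 0.89 by edgeR and 0.0245 by DESeq2), and that of UDR against UD -5.48 (SE 1.73; adjusted p = 0.487 by edgeR and 0.00812 by DESeq2).

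ENSOARG00000012810 was the most abundant member in the 3 libraries, at 7739 CPM in UD 1, 5187 in UD 4 and 5928 in IA 2. It was chosen and named for its values in these libraries, so its p-values below are a description and not a test. The controls held 848.2, 709.9, 330.8 and 325.4 CPM in C 1 to 4, so this was an abundant transcript in untreated amnion too. UD 2 and UD 3, at 1381 and 1132 CPM, and IA 4 and IA 3, at 1604 and 959.8 CPM, were above every control, and IA 1, at 622.5 CPM, was among them. UDR 1 to 4 were at 751.4, 1105, 352.2 and 290.8 CPM. UDR 2 lay above every control, UDR 4 below every control, and UDR 1 and UDR 3 within their range. The log2 fold change of UD against C was 3.05 (SE 0.86; adjusted p = 0.89 by edgeR and 0.0544 by DESeq2), and that of UDR against UD -2.67 (SE 0.85; adjusted p = 0.487 by edgeR and 0.0465 by DESeq2).

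ENSOARG00000009566 had the lowest level in UDR relative to C of all members. It was named for that, so its p-values below are a description and not a test. It was at 109.8 CPM in UD 1, 91.4 in UD 4 and 60.7 in IA 2. C 3, at 162.9 CPM, was higher than all of these, while C 1, C 2 and C 4 were at 0.372, 3.49 and 15.9 CPM. UDR 1 to 4 were at 7.77, 0.195, 0.546 and 3.51 CPM; UDR 2 lay below every control and the others within their range. UD 2, UD 3, IA 1, IA 3 and IA 4 were at 7.63, 10.9, 5.56, 18.0 and 15.4 CPM. The log2 fold change of UDR against C was -3.79 (SE 1.603; adjusted p = 0.777 by edgeR and 0.238 by DESeq2). Without C 3 it was -1.05. The log2 fold change of IA against C was -0.67, but 2.06 without C 3. In both comparisons the mean of C rests on that library.

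ENSOARG00000021018 was next lowest in UDR. It was named for that, and UD 1 and UD 4 helped to choose it as a member. Its p-values and the separation of UDR from UD below are a description and not a test. This ID was at 1627 CPM in UD 1, 1228 in UD 4 and 1334 in IA 2, and at 382.4, 200.7, 59.7 and 122.7 CPM in C 1 to 4. In UDR it was at 122.9, 7.96, 45.8 and 62.0 CPM in UDR 1 to 4, so that UDR 2 and UDR 3 lay below every control. IA 4, at 480.5 CPM, was above every control, and IA 1 and IA 3 were at 88.7 and 129.8 CPM. UD 2 and UD 3 were at 268.5 and 304.0 CPM. The log2 fold change of UDR against UD was -3.92 (SE 1.06; adjusted p = 0.487 by edgeR and 0.00803 by DESeq2), and every UDR library lay below every UD library.

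**Figure D5:**
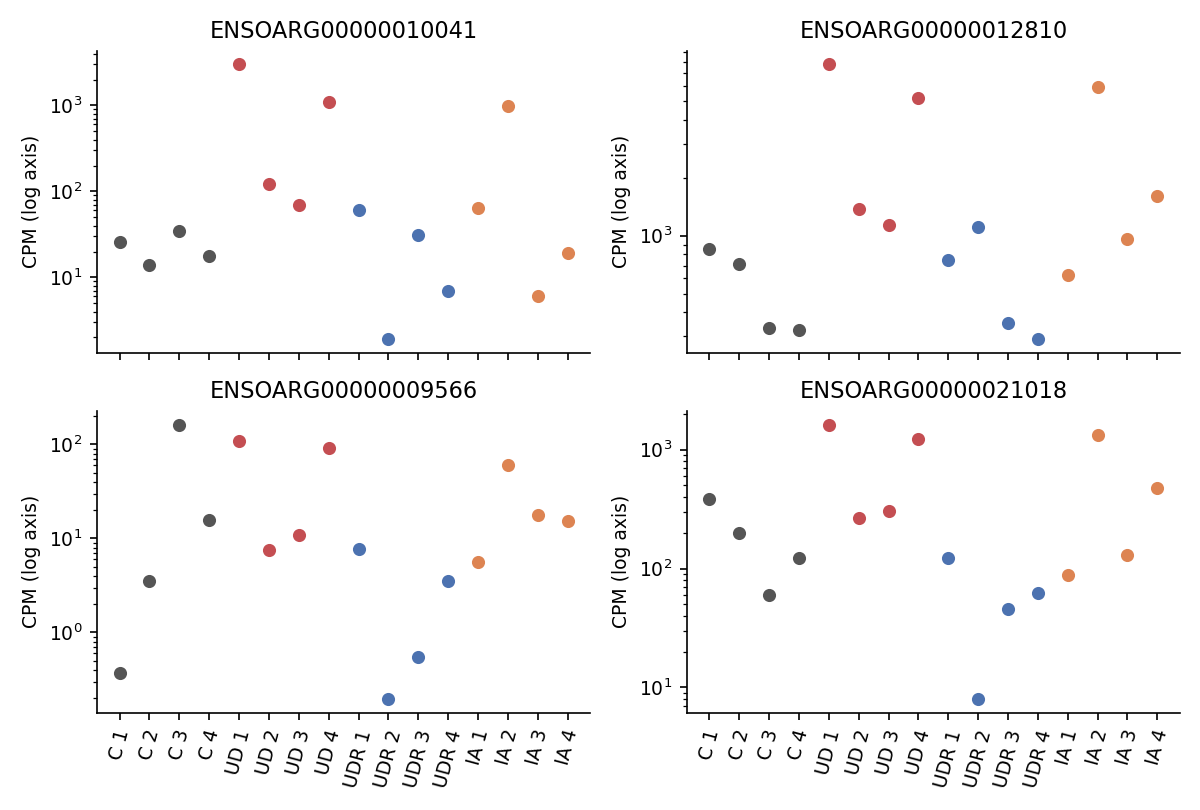
CPM of the 4 named IDs in the 16 libraries, on a log axis, with C in grey, UD in red, UDR in blue and IA in orange. In each panel UD 1, UD 4 and IA 2 are high; C 3 exceeds them for ENSOARG00000009566, at 162.9 CPM.

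The third member in the order is given without its ID, and was singled out after its values were seen. It was at 50.9 CPM in UD 1, 152.8 in UD 4 and 286.5 in IA 2, and at 0.670, 2.19, 0.388 and 0.236 CPM in C 1 to 4. In UDR 3 it reached 12675 CPM, while UDR 1, UDR 2 and UDR 4 were at 11.3, 20.6 and 3.76 CPM. UD 2 and UD 3 were at 64.8 and 3.93 CPM, and IA 1, IA 3 and IA 4 at 3.48, 15.9 and 4.84 CPM. All 12 libraries of treated animals were thus above every control for this gene. The choice of members set only UD 1, UD 4 and IA 2 against the mean of C, and no library against each control.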

How the data were processed

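RNA-seq was done on amnion from 16 fetal sheep, 1 library each. The authors deposited raw read counts for each gene ID, whole numbers with a different total in each of the 18 columns. Per the submitters' processing notes, FastQC 0.11.3, HTSeq 0.6.1 and DESeq2 were used. The aligner, the build, the annotation and the strandedness are each not given in the sources used here, so near-identical, overlapping and antisense genes are uncertain. Each of the 18 columns names 1 sample; the 2 runs of UDR 2 and of UDR 3 were summed.

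CPM used library totals, and log2 a pseudocount of 1 CPM. IDs kept by filterByExpr (14148, with 99.9% of counts) were tested with edgeR 4.0.16 in R 4.3.3 (TMM, robust quasi-likelihood F test, group as the only term, all 16 libraries, two-sided, Benjamini-Hochberg over all IDs, threshold 0.05), first tested on simulated data. Alternatives were RLE scaling, no filter, DESeq2 1.42.0, the replicate number as a block and each library left out, and for membership other pseudocounts, TMM scaling and leaving out libraries. SEs are the log2 fold change over the root of F. P-values measure spread between animals, which includes that of sampling and library preparation.

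Members and lists were chosen with earlier results of these data known. With 0 of 25197 IDs matched to the 35057 genes of ARS-UI_Ramb_v3.0, gene and marker lists could not be applied. The rule for this case named 4 IDs: the member with the largest difference, the one with the highest mean CPM in UD 1, UD 4 and IA 2, and the 2 lowest in UDR relative to C.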

Additional observations from a re-analysis of the deposited data

Results flagged for a closer look

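The member share, the median member level and the 4 named IDs were examined in each group, which gave 24 groups of 4 libraries. Of these, 3 held a library far from the other 3. For independent, normally distributed values about 1.2 would be flagged. The values here are not independent and come from members chosen in the same libraries, so the 2 numbers cannot be compared. UDR 3 stood apart in the member share, at 2.16% against 0.371% to 0.441% in the rest of UDR. IA 2 stood apart in ENSOARG00000010041, at 991.6 CPM against 6.01 to 64.4 CPM in the rest of IA, and IA 2 was used to choose the members. C 3 stood apart in ENSOARG00000009566, at 162.9 CPM against 0.372 to 15.9 CPM in the other controls. That ID was named for its low UDR level relative to the mean of C, which includes C 3.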

How the results depend on the processing

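The list depended on its settings. Of the 200 members, 176 remained with a pseudocount of 0.5 CPM, 146 with 5 CPM and 195 with TMM scaling. When 1 library was left out of the choice, 136 (without UD 4) to 191 (without UD 1) remained. The level of the median member in a library moved by -0.79 to 0.39 in log2 over the pseudocounts and by -0.04 to 0.28 with TMM scaling. With edgeR, 0 IDs were called in each of the 4 comparisons under RLE scaling, no filter, the replicate block and every library left out (0 to 0); DESeq2 called 14 in UD against C, 5 in IA against C, 31 in UDR against C and 155 in UDR against UD. With 1 library left out the median log2 fold change of the members was 2.20 to 3.35 in UD against C, 0.65 to 2.89 in IA against C, -0.30 to 0.51 in UDR against C and -3.22 to -2.20 in UDR against UD; the 0.65 is without IA 2. Replicate numbers belong to different animals and did not pair them: 10 of 24 same-number pairs correlated above 0.1 in their deviations from the group means (from -0.56 to 0.64), and 7 of 16 libraries were closest to their own number. With the number as a replicate block the median log2 fold change of the members was 3.03 in UD against C, 2.24 in IA against C, 0.44 in UDR against C and -2.74 in UDR against UD.

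Among the named IDs, none of which edgeR called, the log2 fold change of ENSOARG00000009566 in UD against C ran from -0.102 (without UD 1, where its sign turned) to 3.24 with 1 library left out, and in IA against C from -1.69 to 2.06 (without C 3, where its sign turned), with 0.35 under the replicate block. In UDR against C, ENSOARG00000009566 ran from -5.07 (without UDR 1) to -1.05 (without C 3). In that comparison ENSOARG00000010041 turned to -0.0426 under the replicate block and to -0.68 without UDR 1, and reached 0.71 without UDR 2. In the same comparison ENSOARG00000012810 turned to -0.0794 without UDR 2, and its highest value was 0.64. The cause of these changes was not tested, except that the fits without a library rest on fewer animals.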
